A study of Homo sapiens with 24 samples.

Results

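The comparison described here set MDA-MB-231 cells after 24 h of cisplatin against the same line at 0 h, on 4 of the 24 arrays of the series. MDA-MB-231 is an established triple-negative breast cancer line with a mesenchymal character. The group at 24 h held 2 independent replicates in 2 µM cisplatin and the group at 0 h held 2 replicates, both taken by their titles. No genetic change was made in any group, and all cultures were grown under the supplier's conditions. The other 12 arrays used for comparison were the same times of BT549, HCC38 and MDA-MB-157. Untreated cultures of matched time are not analysed here, so the drug and the time in culture cannot be told apart. All 14807 named genes detected on at least 2 arrays were tested.

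Cisplatin is a platinum drug that crosslinks the bases of DNA, mostly within a strand and at a lower rate between strands. Such lesions stall replication forks and call on the ATR and CHK1 checkpoint, on nucleotide excision repair, on the Fanconi anaemia pathway and on bypass polymerases. p53 then normally switches on arrest and death genes, but MDA-MB-231 is known for a mutant p53. Cells short of amino acids, or with misfolded protein in the endoplasmic reticulum, use the separate ATF4 and unfolded protein response programmes.

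Normalised log2 signal is called the level below, and a difference is the mean level at 24 h minus the mean level at 0 h, on the log2 scale. Between 18303 and 21976 of 47322 probes were detected per array over the series. On the 4 arrays the count was 20489 and 18303 at 24 h, against 19205 and 19315 at 0 h. The upper-quartile intensity before normalization was 283 and 134 at 24 h, against 146 and 166 at 0 h. The small number of arrays limits the precision. The levels of VIM, CD44, RAC2, FOXA2, C19orf33, AXL, CAV1 and LAMB3, the markers chosen for the line, were detected on all arrays of the line. They were chosen with earlier results of these data known, so their detection is no separate test. At 0 h VIM, CD44 and CAV1 read higher in another line, at 14.49, 13.23 and 14.40. RAC2, FOXA2, C19orf33, AXL and LAMB3 read lower in every other line. Of the luminal and hormone receptor markers, ERBB2, KRT8, KRT18 and EPCAM were also detected on every array of the line, while the progesterone receptor gene PGR was on none.

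The arrays at 0 h did not match each other. Replicate 2 at 0 h correlated at 0.976 on average with the line's other 5 arrays, against 0.985 to 0.988 for the others. Between the arrays at 0 h 829 genes lay over 2-fold apart. The 24 h arrays lay over 2-fold apart at 252 genes, and differed from 0 h replicate 1 at 108 and 229 genes. They differed from 0 h replicate 2 at 752 and 952 genes. List medians are therefore given with both 0 h arrays and also without replicate 2.

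Genes high in another line of the series were also detected on some of these arrays. The genes were chosen after seeing the data, as those with a level of at least 10 in the other line at 0 h and a median of at most 5 over the MDA-MB-231 arrays. Of 21 such BT549 genes, 6 and 0 were detected at 24 h, against 4 on 0 h replicate 1 and 13 on 0 h replicate 2. At 72 h, 11 of these BT549 genes were detected on replicate 1 and 1 on replicate 2, so such signal was not limited to the 0 h arrays. Of 25 HCC38 genes, 3 were detected on each 24 h array, against 2 and 16 on the 0 h arrays. Of 23 MDA-MB-157 genes, 3 and 1 were detected at 24 h, against 14 and 6 at 0 h. The highest was KLK5, a keratinocyte-type protease that marks HCC38 here. It read 4.56 and 4.70 at 24 h, against 4.55 and 7.59 at 0 h. The part of these genes in the results was not tested.

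No gene passed the test between 24 h and 0 h. A call required a p under 0.05 after Benjamini-Hochberg adjustment in limma, which gave 0 of 14807 genes (0%) and a smallest adjusted p of 0.274. At an unadjusted p under 0.05 there were 645 genes higher (4.36%) and 615 lower (4.15%), or 8.51% in all, where chance alone gives 740. Without 0 h replicate 2, limma again called 0 genes (0%), with a smallest adjusted p of 0.324 and 716 genes (4.84%) at an unadjusted p under 0.05. With 0 h replicate 2 as the only baseline, 659 genes were called (4.45%), 289 of them higher (1.95%) and 370 lower (2.5%), and 17.7% of all genes had an unadjusted p under 0.05. The groups did not overlap at 30.5% of all genes, so a lack of overlap alone does not single out a gene. In bulk RNA, fewer cells of a kind and less RNA per cell cannot be told apart. The number of calls thus rested on which 0 h array was used. With either 0 h array left out, the disagreement between them does not enter the spread behind the p-values. The median standard error of a difference was 0.23, and differences near that size were not detectable with these arrays. Much larger ones were not called either, such as 1.01 ± 0.19 for PKMYT1 and -1.24 ± 0.24 for ADCK1 (SE, n = 2 each). The lack of calls therefore does not show that no gene changed.

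**Figure D1:**
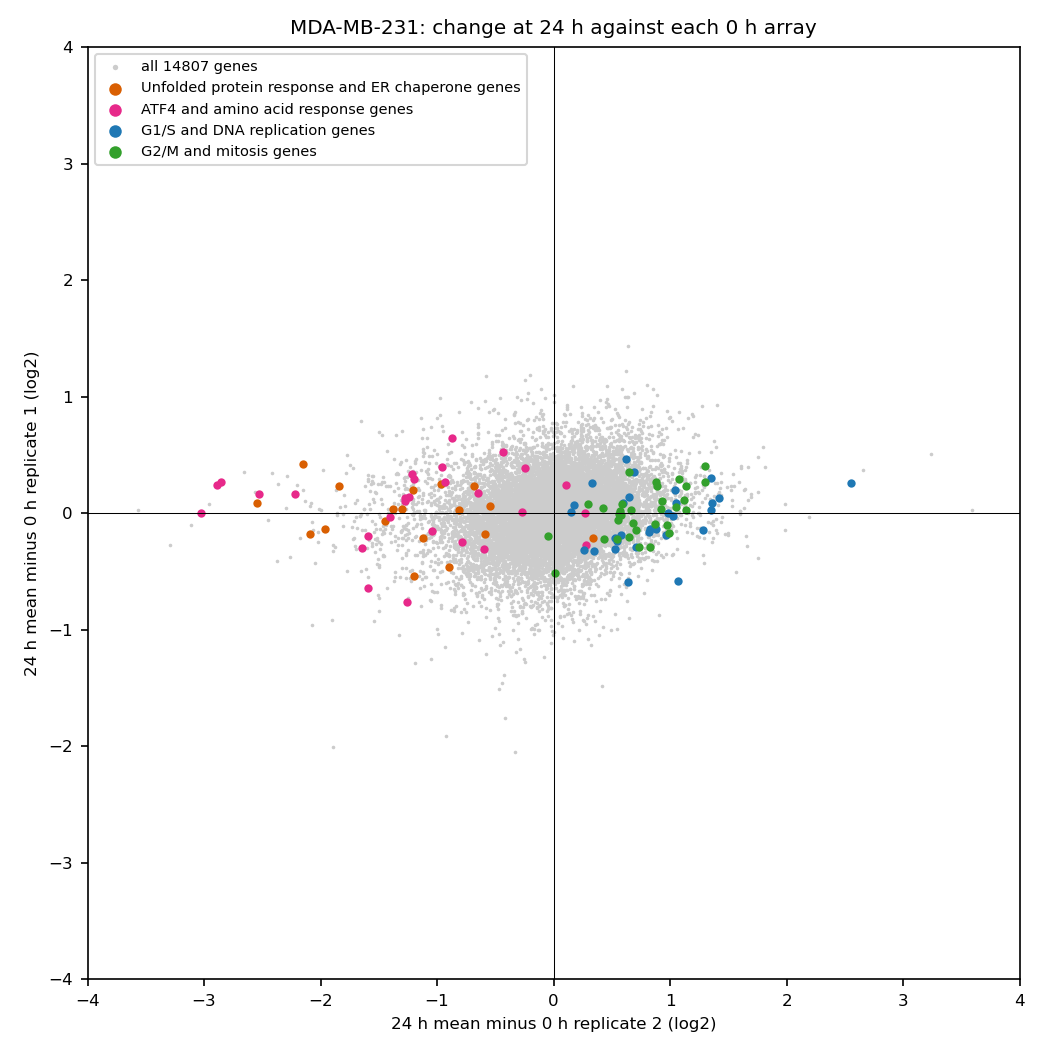
Each point is a gene, with its 24 h mean minus 0 h replicate 2 on the horizontal axis and minus 0 h replicate 1 on the vertical axis, both in log2 units. Genes of 4 lists are coloured. Unfolded protein response and ATF4 genes spread to the left and cell cycle genes to the right, while both stay near 0 on the vertical axis, where their medians lie between -0.01 and 0.13.

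The 16 genes with the smallest p and the same sign with and without 0 h replicate 2 had various roles. The uncalled gene with the smallest p among those higher at 24 h was PKMYT1, a kinase that inhibits CDK1 and so holds cells before mitosis. Its level was 8.30 and 8.35 at 24 h, against 7.50 and 7.13 at 0 h, so the groups did not overlap. The difference was 1.01 ± 0.19 (SE, n = 2 each; limma adjusted p = 0.274), and 0.83 without 0 h replicate 2 (limma adjusted p = 0.664). A second PKMYT1 probe gave 0.94 with both 0 h arrays and 0.04 without replicate 2, so the probes did not give the same value there. In BT549, HCC38 and MDA-MB-157 the difference at 24 h was 0.67, 0.63 and 0.44.

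CD274 encodes PD-L1, the ligand that restrains T cells through PD-1. It was detected on both 24 h arrays and on neither 0 h array. Its level was 5.24 and 5.49 at 24 h, against 4.69 and 4.55 at 0 h. It was thus at least 1.27-fold higher at 24 h (limma adjusted p = 0.278). The size depended on the processing, since the log2 difference was only 0.25 with no background correction and 0.08 with 75th percentile scaling. The levels in the other lines at 0 h were 4.31 in BT549, 4.40 in HCC38 and 4.38 in MDA-MB-157.

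The zinc finger gene ZKSCAN7 was at least 1.51-fold higher and SP5, a Wnt-responsive transcription factor, at least 1.41-fold higher, both undetected at 0 h (limma adjusted p = 0.278 for each). FZD3, a Wnt receptor, read 5.96 and 6.21 at 24 h, against 4.87 and 5.46 at 0 h. CSPG5, a chondroitin sulfate proteoglycan, read 6.32 and 6.38 at 24 h, against 5.48 and 5.28 at 0 h. ARF3, a small GTPase of the Golgi, read 9.09 and 9.03 at 24 h, against 8.40 and 7.86 at 0 h. In each of these genes both 24 h arrays lay above both 0 h arrays (limma adjusted p = 0.278 for FZD3, CSPG5 and ARF3). That adds no support of its own, since the genes were picked by the smallest p. BRI3BP read 9.90 and 9.64 at 24 h, against 8.94 on both 0 h arrays, but another of its probes gave a difference of only 0.11.

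Among the genes that were lower, FHIT had the smallest p. FHIT is a diadenosine triphosphate hydrolase whose locus spans a fragile site. It read 4.98 and 4.97 at 24 h, against 6.01 and 5.97 at 0 h, a difference of -1.02 ± 0.19 (SE, n = 2 each; limma adjusted p = 0.274). Without 0 h replicate 2 it was -1.04 (limma adjusted p = 0.45), since the 0 h arrays gave nearly the same level. At 72 h it read 5.21 and 5.34. FHIT was detected on 1 of 2 arrays at 24 h, as were MRPS25, SLC5A8 and PSG2 below. So were HRK, FOSB, STARD4, SLC7A11, CDH1 and CDH2 of the lists. At 0 h, FZD3, CLSPN, DUSP7 and SLC7A11 were detected on 1 of 2 arrays.

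ADCK1, a mitochondrial atypical kinase gene, was not detected on either 24 h array and was at least 1.93-fold lower (limma adjusted p = 0.274). With no background correction its log2 difference was -0.42, and with 75th percentile scaling -0.46. FRA10AC1 was likewise undetected at 24 h and at least 1.81-fold lower (limma adjusted p = 0.278). MRPS25, a subunit of the mitochondrial ribosome, read 5.47 and 5.04 at 24 h, against 6.30 and 6.58 at 0 h. PLD1, a phospholipase D, read 6.39 and 6.26 at 24 h, against 7.11 and 7.30 at 0 h. All of these gave similar values on both 0 h arrays. SLC5A8, a monocarboxylate transporter, differed more between them, at 5.48 and 5.03 at 24 h, against 6.21 and 7.33 at 0 h. PSG2, of a family of closely similar pregnancy glycoproteins, read 5.03 and 4.58 at 24 h, against 5.55 and 5.87 at 0 h. ZNF16 differed by -0.89 ± 0.19 (SE, n = 2 each), but its other probe gave -0.04.

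**Figure D2:**
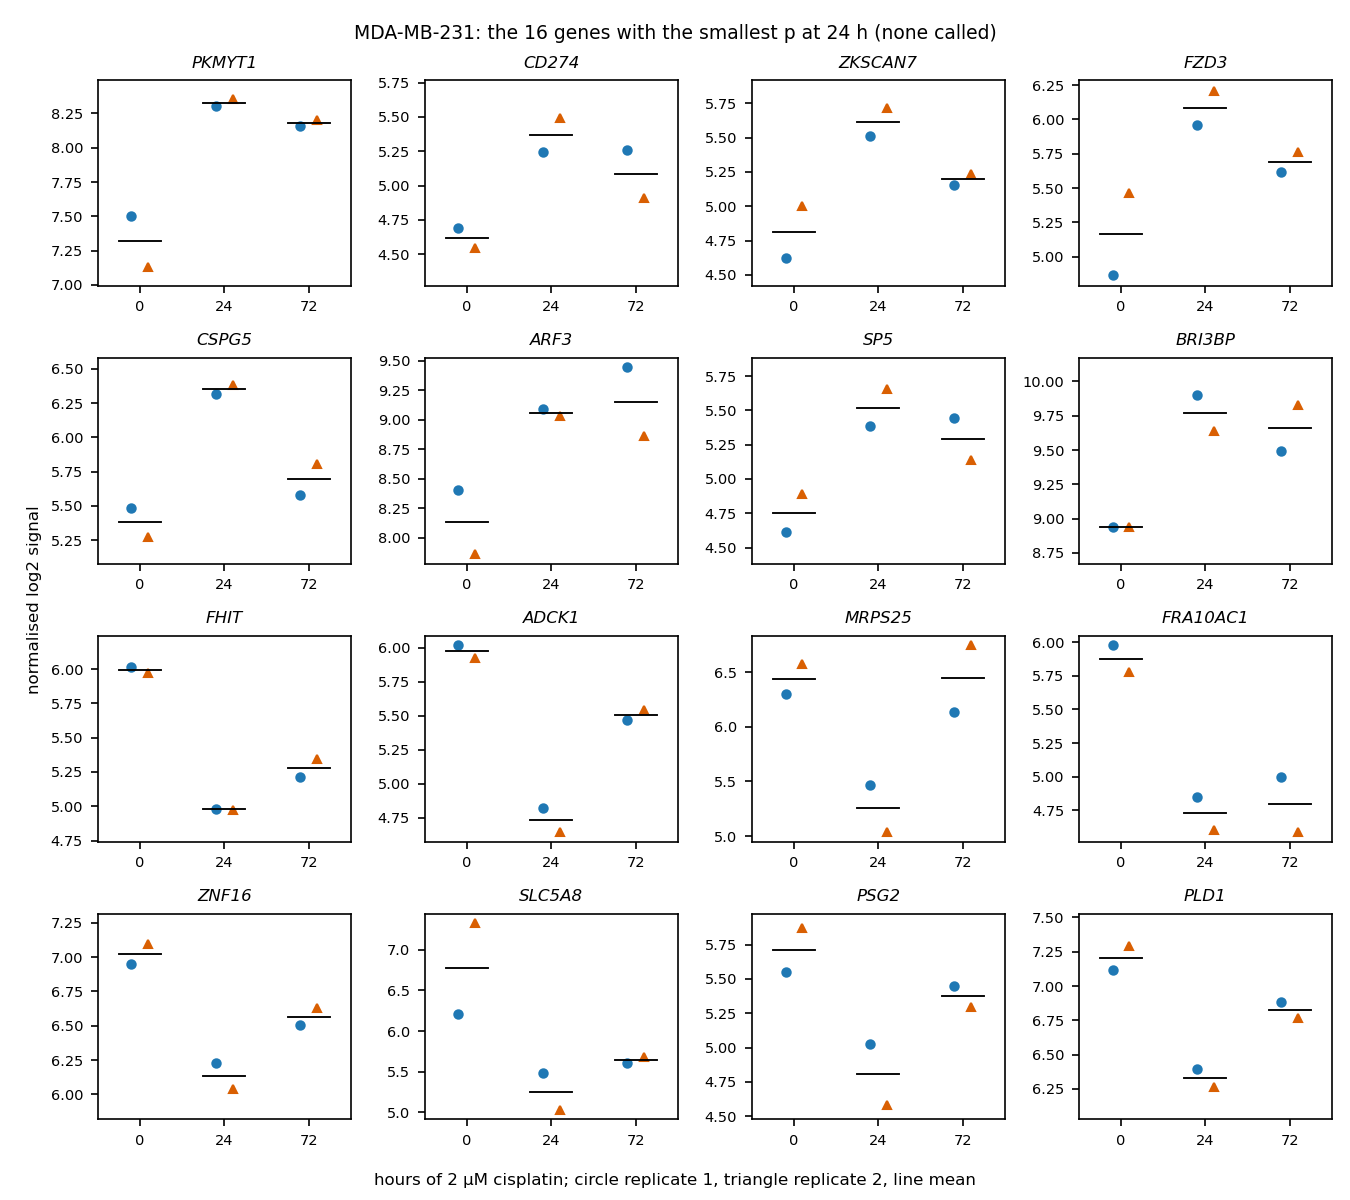
Normalised log2 signal of the 16 genes on each MDA-MB-231 array by hours of cisplatin, with replicate 1 as circles, replicate 2 as triangles and the mean as a line. Both 24 h arrays lie on the same side of both 0 h arrays in every panel. The 72 h levels lie between those of 0 h and 24 h in PKMYT1, ZKSCAN7, FZD3 and CSPG5, which were higher at 24 h. They also do so in FHIT, ADCK1, ZNF16, SLC5A8, PSG2 and PLD1, which were lower. The genes were picked by their p at 24 h.

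The checkpoint genes, kinases and adaptors that arrest cells with damaged DNA, lay above 0 at 11 of 17 genes, with a median difference of 0.27 against 0.01 over all genes tested. The median was 0.03 without 0 h replicate 2. None of the 17 was called (0%) with or without that array. CDC25C, the phosphatase that activates CDK1, read 7.93 and 7.94 at 24 h, against 7.45 and 7.23 at 0 h (difference 0.60, limma adjusted p = 0.492). Without replicate 2 it was 0.49. Other CDC25C probes gave 0.74 and 0.75, but 0.18 and -0.03 without replicate 2. In BT549, HCC38 and MDA-MB-157 the CDC25C difference was -0.54, 0.06 and -0.19. The difference between lines was 0.82 (limma adjusted p = 0.648), and 0.71 without replicate 2. CDC25A, which acts at the start of S phase, read 8.77 and 8.63 at 24 h, against 8.62 and 7.34 at 0 h. CLSPN, the adaptor for CHK1, read 5.96 and 5.22 at 24 h, against 5.51 and 4.49 at 0 h. The CLSPN replicates lay farther apart than the group means.

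The 10 translesion synthesis genes, which serve bypass of lesions by specialised polymerases, kept their median without replicate 2. All 10 lay above 0, with a median of 0.25, and 9 of 10 lay above 0 without replicate 2, with a median of 0.29. None was called (0%). UBE2A, a ubiquitin-conjugating enzyme that acts with RAD18 on PCNA, read 11.11 and 11.08 at 24 h, against 10.77 and 10.33 at 0 h. Its difference was 0.54 ± 0.17 (SE, n = 2 each; limma adjusted p = 0.475), and 0.32 without replicate 2. USP1, the deubiquitinase of PCNA and FANCD2, read 10.60 and 10.33 at 24 h, against 10.22 and 9.78 at 0 h. The medians in the other lines were 0.09, 0.08 and 0.08.

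The Fanconi anaemia and homologous recombination genes, which repair crosslinks and broken forks, had a median of 0.29 over 16 genes, 13 of them above 0. Without replicate 2 the median was -0.04 and 7 lay above 0. EXO1, an end-resecting nuclease, read 8.67 and 8.83 at 24 h, against 8.63 and 7.38 at 0 h, and BLM, a helicase, read 6.67 and 7.03 at 24 h, against 6.67 and 5.61 at 0 h. BARD1, the partner of BRCA1, read 9.12 and 8.80 at 24 h, against 8.62 and 7.95 at 0 h. On the probes that stand for these genes, 0 h replicate 2 was the low array. Other EXO1 probes gave differences of 0.07 and 1.06, and of 0.18 and 0.08 without replicate 2. BRCA1 itself read 7.30 and 7.93 at 24 h, against 6.98 and 6.92 at 0 h, so its 0 h arrays matched. Its difference was 0.67 ± 0.29 (SE, n = 2 each; limma adjusted p = 0.546) and 0.64 without replicate 2. The other BRCA1 probe gave 0.52, and 0.25 without replicate 2. The 24 h arrays of BRCA1 lay apart, and without 24 h replicate 2 the difference was 0.35.

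The nucleotide excision and mismatch repair genes lay near 0, with a median of -0.07 over 17 genes and -0.01 without replicate 2. MSH3, of the mismatch recognition complex, read 13.58 and 13.60 at 24 h, against 13.57 and 14.31 at 0 h. ERCC2, the helicase of TFIIH, read 7.42 and 8.20 at 24 h, against 7.98 and 8.49 at 0 h. The ERCC2 groups overlapped and the MSH3 groups differed by 0 h replicate 2 alone. Another MSH3 probe gave a difference of 0.05.

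The p53 target genes had a median of -0.10 over 20 genes, 9 of them above 0, and -0.03 without replicate 2. GDF15, a secreted stress cytokine, read 8.32 and 8.70 at 24 h, against 8.61 and 11.63 at 0 h. Its difference of -1.61 ± 0.54 (SE, n = 2 each; limma adjusted p = 0.476) was -0.10 without replicate 2. GADD45A, an arrest gene also induced by amino acid stress, read 9.58 and 9.48 at 24 h, against 9.89 and 10.79 at 0 h. For GDF15, which ATF4 can also induce, 0 h replicate 2 stood apart from every other array of the line. SESN1, a sestrin that restrains mTORC1, read 6.03 and 5.74 at 24 h, against 5.26 and 5.60 at 0 h. SESN2 was undetected at 24 h and on 0 h replicate 1, and read 6.002 on 0 h replicate 2. None of the p53 targets was called (0%).

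The BCL2 family and death receptor genes had a median of 0.06 over 21 genes, 14 of them above 0. Without replicate 2 the median was -0.06, and 10 lay above 0. HRK, a BH3-only activator of cell death, read 5.08 and 4.74 at 24 h, against 5.42 and 6.27 at 0 h. It was detected on 1 of 2 arrays at 24 h. The difference was -0.93 ± 0.23 (SE, n = 2 each; limma adjusted p = 0.321), and -0.51 without replicate 2. APAF1, the scaffold of the apoptosome, read 8.23 and 8.28 at 24 h, against 8.07 and 7.30 at 0 h. For MCL1, a survival factor, probes gave differences of -0.36 and 0.32, so no direction can be given.

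Cell cycle genes separated the 0 h arrays. Of the replication and G1/S genes, 29 of 30 lay above 0, with a median of 0.36. Without 0 h replicate 2 only 15 lay above 0 and the median was -0.01. RRM2, the regulated subunit of ribonucleotide reductase, read 10.24 and 10.19 at 24 h, against 9.95 and 7.66 at 0 h, a difference of 1.41 ± 0.50 (SE, n = 2 each; limma adjusted p = 0.492). Without replicate 2 its difference was 0.26. POLE2, a subunit of the leading strand polymerase, read 10.03 and 9.88 at 24 h, against 9.83 and 8.54 at 0 h. MCM10, which helps start replication forks, read 9.44 and 9.30 at 24 h, against 9.07 and 8.02 at 0 h. ORC1, of the origin recognition complex, read 6.40 and 6.73 at 24 h, against 6.48 and 5.21 at 0 h. In each, 0 h replicate 1 lay nearer the 24 h arrays than 0 h replicate 2. With replicate 2 as the only baseline, the median difference of the 30 was 0.76, against 0.02 over all genes tested.

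The G2/M and mitosis genes did likewise. Of 32 genes 30 lay above 0, with a median of 0.34, against 17 and a median of 0.02 without replicate 2. CDK1, the mitotic kinase, read 11.51 and 11.30 at 24 h, against 11.13 and 10.10 at 0 h. TOP2A, the topoisomerase that untangles chromosomes, read 12.37 and 12.32 at 24 h, against 12.06 and 11.26 at 0 h. MAD2L1, of the spindle checkpoint, read 11.12 and 11.38 at 24 h, against 10.85 and 9.95 at 0 h. CCNA2, a cyclin of S and G2, read 11.40 and 11.33 at 24 h, against 11.13 and 10.23 at 0 h. The 24 h arrays lay above both 0 h arrays for all of these, by 0.68 for TOP2A (limma adjusted p = 0.475) and by 0.29 without replicate 2. CDK1 had another probe at 1.20, and 0.62 without replicate 2.

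Promoters of these genes share short letters that are known to bind E2F and the factors of the CHR element. The windows of PCNA, CDK1 and TOP2A below show them, taken from RefSeq (GRCh38.p14) and printed 5′ to 3′ on the gene's own strand, with the motif on either strand in capitals. PCNA, the sliding clamp of replication, lay at 11.46 and 11.19 at 24 h, against 11.49 and 10.50 at 0 h. It was chosen after its values were seen. The PCNA window is chr20:5126633-5126712 on the minus strand, the CDK1 window chr10:60778131-60778210 on the plus strand and the TOP2A window chr17:40418017-40418096 on the minus strand.
PCNA: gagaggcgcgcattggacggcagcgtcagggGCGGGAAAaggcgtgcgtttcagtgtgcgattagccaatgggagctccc
CDK1: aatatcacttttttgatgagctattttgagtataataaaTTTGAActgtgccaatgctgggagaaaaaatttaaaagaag
TOP2A: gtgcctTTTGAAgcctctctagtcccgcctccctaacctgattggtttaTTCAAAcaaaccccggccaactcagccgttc
The E2F letters searched were TTT, then a pair of bases that are each G or C, then CGC, on both strands, between 250 bases before and 50 after the start. They were in 17 of 27 promoters of the G1/S list found in RefSeq (63.0%), against 3.34% of 27195 promoters of all genes. The CHR letters TTTGAA were in 18 of 26 promoters of the G2/M list (69.2%), against 10.8% of promoters of genes tested and 15.4% of all.

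ATF4 and amino acid response genes differed in the opposite direction. Of 28 genes 24 lay below 0, with a median of -0.54. The median was 0.13 without 0 h replicate 2, and 18 lay above 0. DDIT3, the CHOP factor that promotes death under prolonged stress, read 8.04 and 8.50 at 24 h, against 8.27 and 11.29 at 0 h. TRIB3, a pseudokinase induced by ATF4, read 8.48 and 9.20 at 24 h, against 8.60 and 11.73 at 0 h. CTH, which makes cysteine by transsulfuration, read 7.35 and 7.34 at 24 h, against 7.18 and 9.87 at 0 h. All 3 lay high on 0 h replicate 2 and near the 24 h level on 0 h replicate 1. NUPR1, a stress-induced chromatin protein, read 5.75 and 6.78 at 24 h, against 5.99 and 9.12 at 0 h. At 72 h DDIT3 read 8.03 and 9.40. The difference of DDIT3 was -1.51 ± 0.61 (SE, n = 2 each; limma adjusted p = 0.519), and 0.00 without replicate 2.

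Cytosolic aminoacyl-tRNA synthetases, which charge tRNAs and are known targets of ATF4, had a median of -0.31 over 16 genes and 0.02 without 0 h replicate 2. WARS1, which charges tryptophan tRNA, read 9.36 and 9.66 at 24 h, against 9.76 and 11.53 at 0 h. SARS1, for serine, read 9.05 and 9.44 at 24 h, against 9.51 and 10.73 at 0 h. AARS1, for alanine, read 10.82 and 10.98 at 24 h, against 10.88 and 12.30 at 0 h. MARS1, for methionine, read 9.31 and 9.22 at 24 h, against 9.33 and 10.34 at 0 h. In all of these replicate 2 at 0 h was the high array. With it as the only baseline, the median difference was -1.21 for the 28 ATF4 genes and -0.77 for the 16 synthetases. Over all genes tested it was 0.02.

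The unfolded protein response and ER chaperone genes had a median of -0.67 over 18 genes, 17 of them below 0. Without replicate 2 the median was 0.03 and 10 lay above 0. HSPA5, the chaperone BiP, read 8.21 and 8.30 at 24 h, against 8.16 and 10.80 at 0 h, a difference of -1.23 ± 0.47 (SE, n = 2 each; limma adjusted p = 0.512). Without replicate 2 it was 0.09. SDF2L1, of the ER chaperone complex, read 9.75 and 10.18 at 24 h, against 10.15 and 12.05 at 0 h. CRELD2, an ER resident that is induced with BiP, read 8.53 and 9.02 at 24 h, against 8.91 and 10.73 at 0 h. SEL1L, of ER-associated degradation, was undetected on both 24 h arrays and detected on both at 0 h (at least 1.32-fold lower, limma adjusted p = 0.278). SEL1L is a gene of this list whose 0 h arrays both lay above 24 h, at 5.09 and 5.75.

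Promoter windows of 4 of these stress genes carry the letters that ATF6 and ATF4 are known to read, in capitals, taken likewise from RefSeq. HSPA5 is chr9:125241364-125241443 on the minus strand and CRELD2 chr22:49918524-49918603 on the plus strand. ASNS, asparagine synthetase, was chosen after its values were seen, and is chr7:97872429-97872508 on the minus strand. AARS1 is chr16:70289647-70289726 on the minus strand.
HSPA5: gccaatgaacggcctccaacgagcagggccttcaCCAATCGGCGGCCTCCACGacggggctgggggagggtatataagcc
CRELD2: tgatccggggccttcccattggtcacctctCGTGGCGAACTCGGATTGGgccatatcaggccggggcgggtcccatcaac
ASNS: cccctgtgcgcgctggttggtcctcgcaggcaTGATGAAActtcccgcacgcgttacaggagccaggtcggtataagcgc
AARS1: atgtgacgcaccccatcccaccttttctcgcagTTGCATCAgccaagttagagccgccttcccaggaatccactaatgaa
The ER stress element searched was CCAAT and CCACG with 9 free bases between them, and the ATF4 element was TGATG, 1 free base and AA, each on both strands. The ER element was in 7 of 18 promoters of the unfolded protein response list (38.9%). That compares with 0.121% of the 11589 promoters of genes tested, and 0.0809% of 27195 promoters of all genes. The ATF4 element was in 5 of 13 synthetase promoters (38.5%) and in 3 of 22 of the ATF4 list (13.6%). It was in 2.09% of promoters of genes tested and in 3.67% of all. ASNS itself read 9.90 and 10.22 at 24 h, against 9.90 and 12.28 at 0 h.

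**Figure D3:**
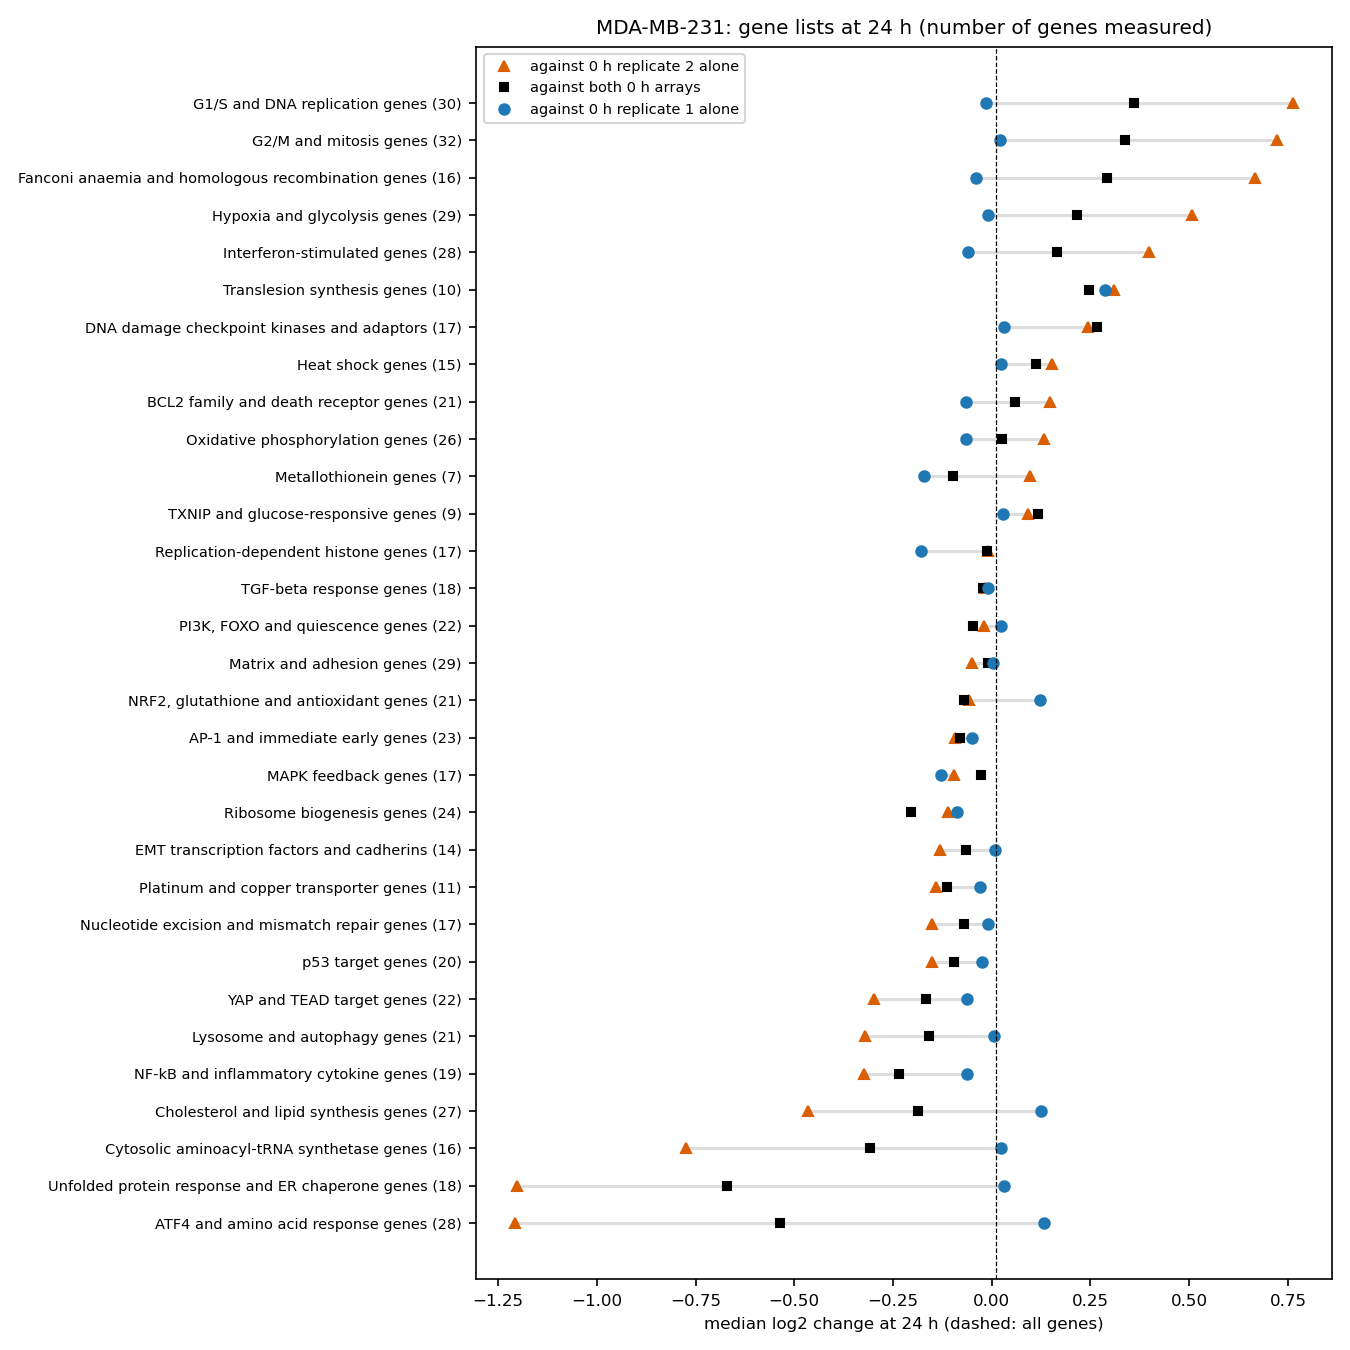
Median log2 difference at 24 h over the measured genes of each of the 31 lists, against 0 h replicate 2 alone (triangles), both 0 h arrays (squares) and 0 h replicate 1 alone (circles). The ATF4 list runs from -1.21 to 0.13 and the G1/S list from 0.76 to -0.01, while translesion synthesis lies between 0.25 and 0.31.

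Slide and 0 h replicate changed together, since slide 1 held 24 h replicate 2 and 0 h replicate 1, and slide 2 held 24 h replicate 1 and 0 h replicate 2. Within slide 1 the median was -0.14 for the G1/S list, 0.09 for the ATF4 list and -0.01 for the unfolded protein response list. Within slide 2 the medians were 0.95, -1.15 and -1.25 in the same order. The translesion synthesis list had 0.17 and 0.43 on slides 1 and 2. FHIT differed by -1.04 on slide 1 and -0.99 on slide 2, ITGAV by 0.43 and 0.60, and BRCA1 by 0.96 and 0.38. PKMYT1 differed by 0.85 and 1.17, and VEGFA by -0.74 and -1.28. With slide as a block limma called 0 genes (0%).

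TXNIP, an inhibitor of thioredoxin that is induced by glucose, had the largest difference among the listed genes named here. It read 11.30 and 11.41 at 24 h, against 11.33 and 7.76 at 0 h, a difference of 1.81 ± 0.68 (SE, n = 2 each; limma adjusted p = 0.512). Without replicate 2 it was 0.03. TXNIP read 11.44 and 11.28 at 72 h. The list of TXNIP and other glucose-responsive genes had a median of 0.12 over 9 genes, and of 0.03 without replicate 2.

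Hypoxia and glycolysis genes had a median of 0.22 over 29 genes and -0.01 without replicate 2. Of these, 22 lay above 0, and VEGFA, the angiogenic growth factor, was among the 7 below. It read 7.999 and 8.05 at 24 h, against 8.79 and 9.28 at 0 h, a difference of -1.01 ± 0.24 (SE, n = 2 each; limma adjusted p = 0.278). Without replicate 2 it was -0.76, and its other probe gave -0.84 and -0.75 without replicate 2. BNIP3, which drives mitophagy, read 13.03 and 13.05 at 24 h, against 12.71 and 12.25 at 0 h, and TPI1, a glycolytic enzyme, read 13.04 and 13.22 at 24 h, against 12.91 and 12.36 at 0 h. Neither overlapped between times, but both had 0 h replicate 2 as the lowest array.

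**Figure D4:**
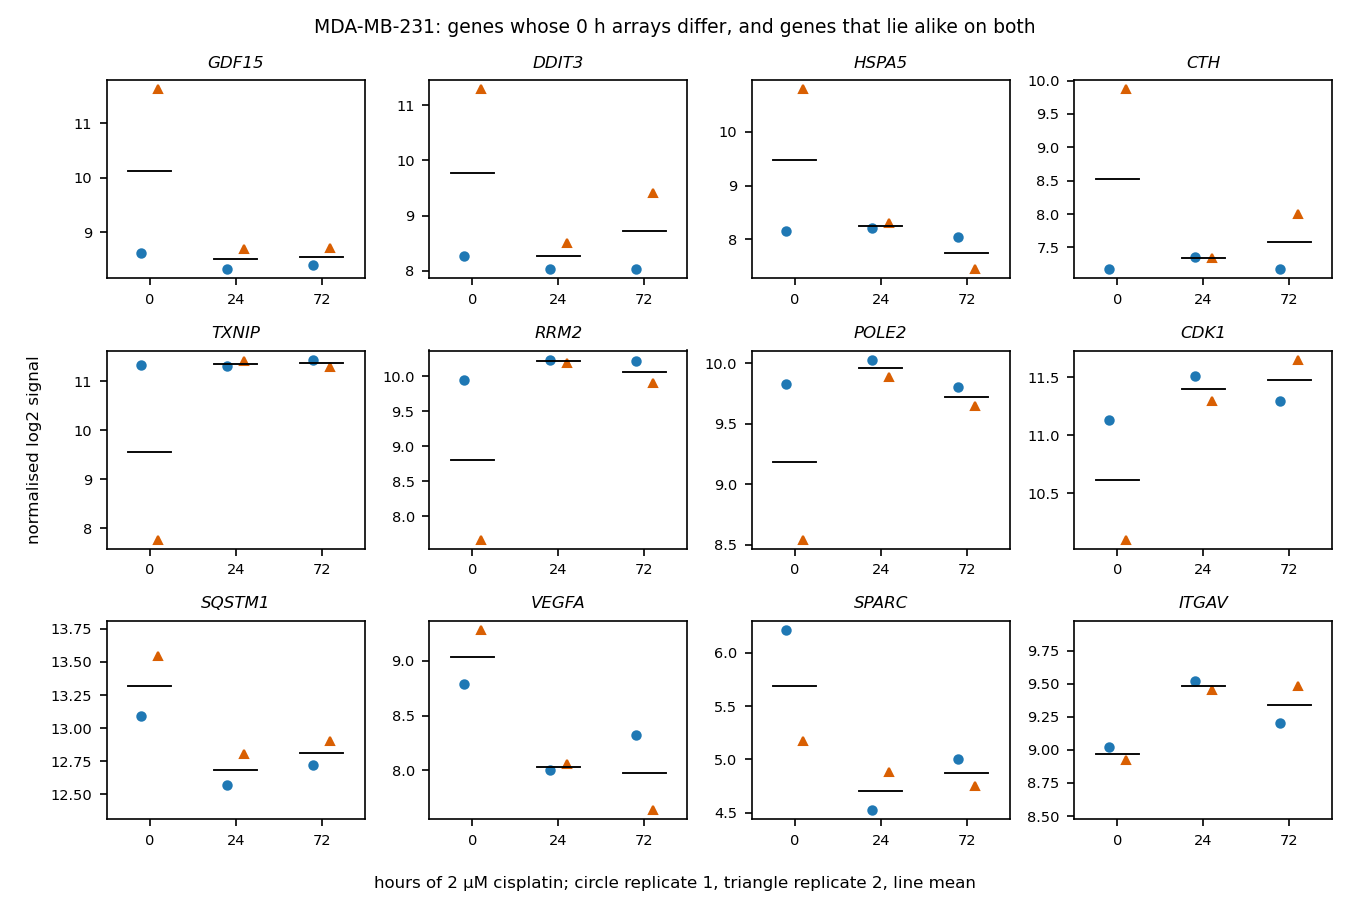
Normalised log2 signal of 12 genes on each MDA-MB-231 array by hours of cisplatin, with replicate 1 as circles, replicate 2 as triangles and the mean as a line. In GDF15, DDIT3, HSPA5 and CTH 0 h replicate 2 is far above the other arrays, and in TXNIP, RRM2 and POLE2 it is far below. In VEGFA, SQSTM1 and ITGAV both 0 h arrays lie on the same side of 24 h. They also do so in RRM2, POLE2, CDK1 and SPARC, where the 0 h arrays lie farther from each other.

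The cholesterol and lipid synthesis genes lay below 0 at 19 of 27 genes, with a median of -0.19, and at 0.13 without 0 h replicate 2. STARD4, a sterol carrier, read 4.96 and 5.02 at 24 h, against 5.59 and 5.51 at 0 h. ACACA, the first enzyme of fatty acid synthesis, read 9.01 and 9.12 at 24 h, against 9.08 and 10.12 at 0 h. FASN, the fatty acid synthase, read 11.43 and 11.57 at 24 h, against 11.55 and 12.53 at 0 h, and HSD17B7, of sterol synthesis, read 9.79 and 9.81 at 24 h, against 9.70 and 11.06 at 0 h. STARD4 was the member among these with like levels on both 0 h arrays.

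The NRF2, glutathione and antioxidant genes had a median of -0.07 over 21 genes and 0.12 without replicate 2. AKR1C2, an aldo-keto reductase close in sequence to its family members, was undetected at 24 h and at least 2.00-fold lower (limma adjusted p = 0.512). It read 4.90 and 4.87 at 24 h, against 5.38 and 6.66 at 0 h, so that 0 h replicate 2 was far the higher. Leaving that array out gave a log2 difference of -0.50, and another AKR1C2 probe gave -0.27, or -0.09 without replicate 2. At 0 h AKR1C2 read 5.23 in BT549, 12.75 in HCC38 and 5.97 in MDA-MB-157. On 0 h replicate 2, 16 of the 25 HCC38 genes given above were detected, and the part of this in AKR1C2 was not tested. GCLC, the rate-limiting enzyme of glutathione synthesis, read 8.01 and 7.81 at 24 h, against 7.70 and 9.18 at 0 h. SLC7A11, the cystine transporter, read 5.33 and 4.78 at 24 h, against 4.76 and 6.26 at 0 h. The groups overlapped in both GCLC and SLC7A11. Another GCLC probe gave a difference of 0.06.

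Metallothioneins bind copper, zinc and platinum through cysteines, and their near-identical copies can share signal on a probe. Over 7 genes the median was -0.10, and it was -0.17 without replicate 2. MT1G read 7.96 on both 24 h arrays, against 8.45 and 8.53 at 0 h, and MT1X read 11.30 and 11.71 at 24 h, against 11.85 and 11.69 at 0 h. In BT549, HCC38 and MDA-MB-157 MT1G differed by 0.40, 0.84 and 0.48. The difference of MT1G in MDA-MB-231 from the mean of those lines was -1.10 (limma adjusted p = 0.682) and did not pass the test.

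Platinum and copper transporter genes had a median of -0.11 over 11 genes and -0.03 without replicate 2. ABCC3, an efflux pump of conjugates, read 8.96 and 8.85 at 24 h, against 9.26 and 10.10 at 0 h. SLC31A1, the copper importer CTR1, read 8.60 and 8.78 at 24 h, against 8.51 and 9.56 at 0 h. Neither difference passed the test (limma adjusted p = 0.604 and 0.798).

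The interferon-stimulated genes had a median of 0.17 over 28 genes and -0.06 without replicate 2. IFI44 read 9.34 and 9.46 at 24 h, against 9.31 and 8.13 at 0 h. IFIT1, an RNA-binding antiviral protein, read 9.96 and 9.81 at 24 h, against 9.88 and 8.64 at 0 h. IFIT3, its partner, read 10.29 and 10.63 at 24 h, against 10.23 and 9.53 at 0 h. The 24 h arrays lay above 0 h replicate 2 for all 3, and nearer to 0 h replicate 1. IFIT1 had another probe at 0.10.

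NF-kB and inflammatory cytokine genes lay below 0 at 16 of 19 genes, with a median of -0.23 and of -0.06 without replicate 2. The chemokines CXCL2 and CXCL8 attract neutrophils. CXCL2 read 5.58 and 5.36 at 24 h, against 5.53 and 7.92 at 0 h. CXCL8 read 7.51 and 7.50 at 24 h, against 7.53 and 9.16 at 0 h, and CXCL1 read 6.02 and 5.27 at 24 h, against 5.68 and 7.35 at 0 h. All 3 were high on 0 h replicate 2, and CXCL8 was also high on a 72 h array, which read 9.73. In BT549, HCC38 and MDA-MB-157 at 0 h, CXCL2 read 9.44, 7.09 and 4.999. In the same order CXCL1 read 11.71, 9.16 and 7.12, and CXCL8 read 11.56, 8.31 and 7.47. On 0 h replicate 2, 13 of the 21 BT549 genes given above were detected, and the part of this in the chemokines was not tested.

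Immediate early genes, switched on within minutes of a stimulus, varied between replicates at 24 h and at 72 h. FOS read 8.14 and 6.97 at 24 h, against 8.39 and 8.10 at 0 h. FOSB read 7.06 and 4.9999 at 24 h, against 7.42 and 6.46 at 0 h, and ATF3, a stress-induced bZIP factor, read 7.87 and 6.27 at 24 h, against 7.87 and 7.90 at 0 h. The second 24 h array was the low one in all 3. At 72 h replicate 2 was the lower array too, at 7.72 and 6.78 for FOS, 7.37 and 5.06 for FOSB and 8.12 and 7.04 for ATF3. IER2 had like replicates, at 6.15 and 6.51 at 24 h, against 6.91 and 7.19 at 0 h, with a difference of -0.72 ± 0.25 (SE, n = 2 each; limma adjusted p = 0.49). The list's median was -0.08 over 23 genes and -0.05 without replicate 2. Of the MAPK feedback genes 11 of 17 lay below 0, with a median of -0.03, and of -0.13 without replicate 2. DUSP7, an ERK phosphatase and one of those above 0, read 5.87 and 5.85 at 24 h, against 5.34 and 4.61 at 0 h.

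YAP and TEAD target genes had a median of -0.17 over 22 genes and -0.06 without replicate 2. ANKRD1, a sensitive YAP target, read 6.67 and 10.91 at 24 h, against 10.71 and 9.71 at 0 h. A single 24 h array was low, and the difference without it was 0.71. The replicates of ANKRD1 thus gave no direction.

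The matrix and adhesion genes had a median of -0.01 over 29 genes and 0.00 without replicate 2. ITGAV, an integrin subunit that activates latent TGF-beta, read 9.52 and 9.45 at 24 h, against 9.02 and 8.93 at 0 h. Its difference was 0.51 ± 0.17 (SE, n = 2 each; limma adjusted p = 0.49) and 0.47 without replicate 2. SPARC, a collagen-binding matrix protein, was undetected at 24 h and at least 1.59-fold lower (limma adjusted p = 0.425). It read 6.21 and 5.17 on the 0 h arrays. COL1A1, the main collagen of bone and skin, read 4.90 and 4.9999 at 24 h, against 6.44 and 4.53 at 0 h, and was detected on 0 h replicate 1 alone. Both were high in MDA-MB-157 at 0 h, at 12.05 for SPARC and 11.98 for COL1A1, and in BT549, at 10.97 and 8.78. Both are themselves among the 23 MDA-MB-157 genes given above, of which 14 were detected on that 0 h array, and the part of this in their values was not tested. BMP4, a TGF-beta family ligand, read 8.28 and 8.71 at 24 h, against 8.69 and 6.84 at 0 h.

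Of the EMT transcription factors and cadherins, 9 of 14 lay below 0, with a median of -0.06, and of 0.01 without replicate 2. CDH2, N-cadherin, read 5.88 and 4.59 at 24 h, against 5.74 and 6.35 at 0 h. CDH1, E-cadherin, read 5.48 and 4.83 at 24 h, against 5.31 and 6.46 at 0 h. The replicates of both cadherins lay apart at each time. In BT549, HCC38 and MDA-MB-157 at 0 h, CDH2 read 12.30, 9.96 and 10.86, and CDH1 read 5.60, 11.33 and 5.26. Both were highest on 0 h replicate 2 among these 4 arrays, and that array also detected genes of BT549 and HCC38. At 72 h CDH2 read 7.01 and 5.95, so 72 h replicate 1 lay above every 0 h and 24 h array. CDH1 read 5.70 and 5.07 at 72 h. The part of the other lines' genes in the cadherins was not tested.

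Lysosome and autophagy genes had a median of -0.16 over 21 genes and 0.00 without replicate 2. SQSTM1, the autophagy receptor p62, read 12.57 and 12.80 at 24 h, against 13.10 and 13.55 at 0 h. Its difference was -0.63 ± 0.20 (SE, n = 2 each; limma adjusted p = 0.475), and -0.41 without replicate 2. ATG7, which activates the conjugation of LC3, read 7.43 and 7.77 at 24 h, against 8.34 and 8.10 at 0 h. WIPI1 read 7.96 and 8.14 at 24 h, against 7.80 and 9.61 at 0 h. For SQSTM1 and ATG7 both 0 h arrays lay above both 24 h arrays.

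Of the ribosome biogenesis genes, 15 of 24 lay below 0, with a median of -0.20 and -0.09 without replicate 2. WDR74 read 5.66 and 5.90 at 24 h, against 6.28 and 7.44 at 0 h. The PI3K, FOXO and quiescence genes lay at a median of -0.05 over 22 genes and 0.02 without replicate 2. PDCD4, a translation inhibitor, read 8.80 and 8.92 at 24 h, against 8.96 and 10.30 at 0 h. Its other probe gave a difference of -0.19. Replication-dependent histone genes, whose mRNAs lack a long tail and may be captured poorly, had a median of -0.01 over 17 genes, 8 of them above 0. Without replicate 2 the median was -0.18, and 2 lay above 0. In this list H2BC21 read 5.49 and 5.12 at 24 h, against 5.73 and 6.22 at 0 h, and H1-2 read 9.29 and 9.16 at 24 h, against 9.68 and 9.55 at 0 h. None of these differences passed the test. The remaining lists (heat shock, oxidative phosphorylation and TGF-beta response genes) had medians of 0.11, 0.03 and -0.02, and of 0.02, -0.07 and -0.01 without replicate 2.

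The changes in MDA-MB-231 were set against the mean change of the other lines at the same time. limma called 0 of 14807 genes (0%) as different, the smallest adjusted p was 0.602, and 1084 genes (7.32%) had an unadjusted p under 0.05. Without 0 h replicate 2 it called 0 (0%), with 742 (5.01%) at an unadjusted p under 0.05, and with that array as the only baseline it called 2.16% of genes. Across genes, the differences of MDA-MB-231 and the mean of the other lines correlated at 0.08, and at 0.04 without replicate 2, as a description over genes that share arrays. The G1/S list had medians of 0.28, 0.24 and 0.37 in BT549, HCC38 and MDA-MB-157, near the 0.36 of MDA-MB-231, whose value was -0.01 without replicate 2. The G2/M list had -0.35, -0.01 and -0.04 in those lines. The ATF4 list had 0.01, 0.03 and -0.04.

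**Figure D5:**
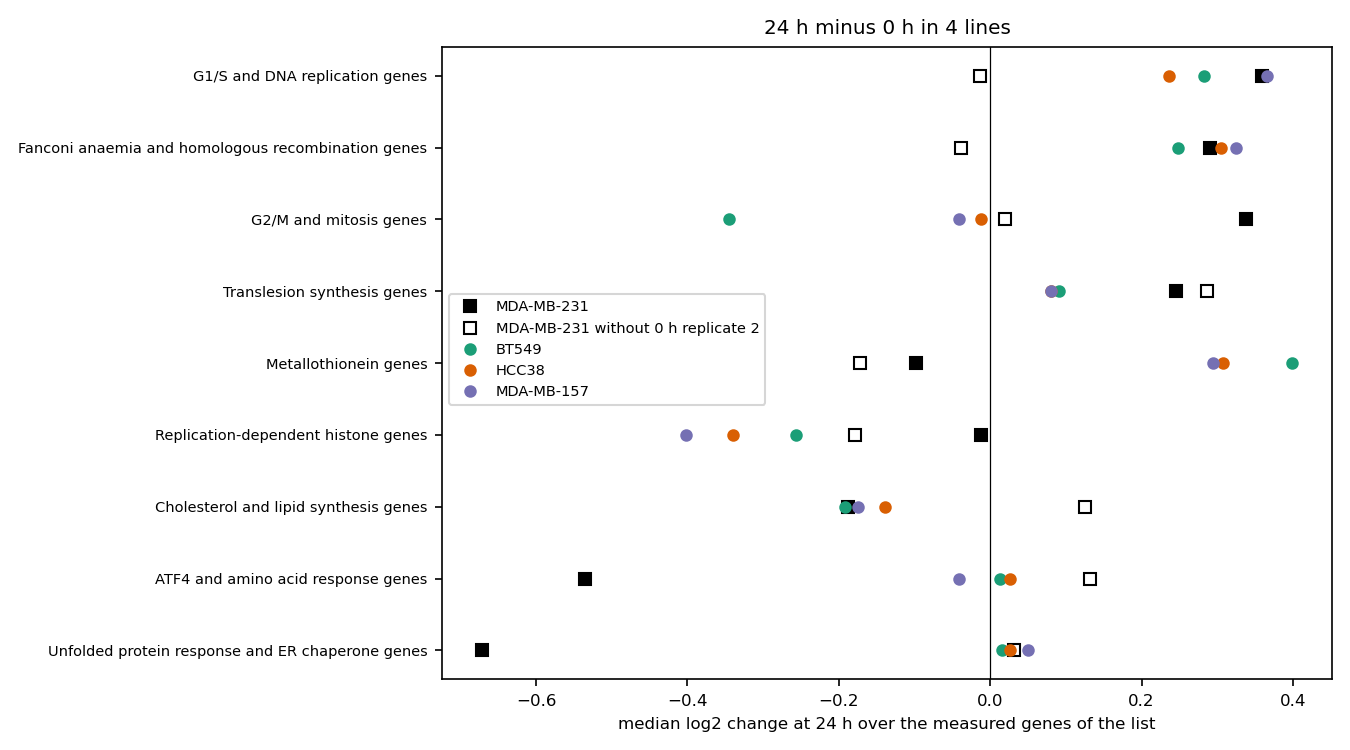
Median log2 difference at 24 h over the measured genes of 9 lists in MDA-MB-231 with both 0 h arrays (filled squares) or without 0 h replicate 2 (open squares), and in BT549, HCC38 and MDA-MB-157 (circles). The ATF4 and unfolded protein response lists stand at -0.54 and -0.67 in MDA-MB-231 with both arrays and lie within 0.13 of 0 in all other cases.

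The 24 h cells were also set against 72 h, a difference whose means use neither 0 h array. Its p-values still took the spread over all 24 arrays, with both 0 h arrays among them. limma called 0 of 14807 genes (0%) for 72 h minus 24 h, with 431 (2.91%) at an unadjusted p under 0.05. PKMYT1 read 8.16 and 8.20 at 72 h, and VEGFA read 8.32 and 7.63.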

How the data were processed

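RNA of MDA-MB-231 and of 3 other lines was biotin-labelled for Illumina bead arrays with an Ambion MessageAmp kit, per the labels' protocols, and the replicates are independent per the series' design text. The authors deposited bead intensity values that are not normalized, with a detection p-value beside each, per the file headers; the summarising software is not given in the sources used here. In a second deposited table the log2 values did not belong to their identifiers (correlation by identifier -0.00735 to 0.00727), so it served only as a check by value. Its columns had medians of -0.402 to 0.184. By value it held log2 intensity centred per array on the 75th percentile and per probe on the median.

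From the intensities, limma 3.58.1 in R 4.3.3 applied normexp (offset 16, negative controls inferred from the detection p-values), quantile normalization and log2. A single symbol was given for 30112 of 47322 probes, several for 8 and none for 17202. A probe was kept if its detection p was under 0.05 on 2 or more of 24 arrays, and the probe with the highest mean stood for each of 14807 genes. limma fitted 12 group means (12 residual and 6.57 prior degrees of freedom), and a Benjamini-Hochberg adjusted p under 0.05 was a call. With either 0 h replicate left out, the lone 0 h array that remains is assumed to vary like the other groups. A gene undetected on every array of its lower group gets only a least fold, set against the lowest signal detected on each array of that group. Each slide held 1 array of each group, and 0 columns of other samples were left out.

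The members, the 31 lists and the tests were chosen with earlier results of these data known. The genes named are the 8 with the smallest p in each direction that had the same sign without 0 h replicate 2, and up to 4 genes of each list by size of difference, of which some are left out. PCNA and ASNS were added for their promoters. Alternatives changed the background correction, scaling, filter, probe choice, moderation, weights, blocks and arrays.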

Additional observations from a re-analysis of the deposited data

How the results depend on the processing

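The counts depended on the 0 h array used. Leaving out each array of the comparison in turn gave 0 to 659 calls, of which 0 to 289 were higher and 0 to 370 lower. The 659 came without 0 h replicate 1 (smallest limma adjusted p 9.051e-06), and 8 came without 24 h replicate 1, among them IL24 at -1.91 (limma adjusted p = 0.0003324). For the difference from the other lines the range was 0 to 320 calls, with 2 without 24 h replicate 1. With the replicate number as a block, limma called 1 gene, ADCK1, lower. The labels do not say that the numbers pair the arrays, and the replicate deviations correlated at -0.05 for 0 h and 24 h, at 0.12 for 0 h and 72 h and at 0.08 for 24 h and 72 h, so pairing is not shown. The slide as a block and 10 other settings each gave 0 calls. So did 0 h replicate 2 left out together with median scaling, a stricter filter or the line's own 6 arrays, which were chosen after seeing the data. Median scaling moved the median of all genes to 0.16, and relative to that shift the G1/S median was 0.46 and the ATF4 median -0.50. Of 96 named genes, 54 were called under some alternative, 53 of them only without 0 h replicate 1. Over the left-out arrays 20 genes turned sign. From lowest to highest log2 difference, DDIT3 ran from -3.02 to 0.0027, TRIB3 from -2.89 to 0.24, CTH from -2.53 to 0.16, NUPR1 from -2.86 to 0.27, ASNS from -2.22 to 0.16, HSPA5 from -2.54 to 0.0902, AARS1 from -1.39 to 0.025, SESN2 from -1.27 to 0.13, WIPI1 from -1.57 to 0.25 and HSD17B7 from -1.26 to 0.10. GCLC ran from -1.27 to 0.21, SLC7A11 from -1.20 to 0.30, SLC31A1 from -0.87 to 0.18, MSH3 from -0.72 to 0.019, FOSB from -1.94 to 0.13, ANKRD1 from -3.54 to 0.71 and COL1A1 from -1.48 to 0.42. PCNA ran from -0.16 to 0.82, BMP4 from -0.20 to 1.65 and IFIT1 from -0.0008 to 1.24. The cause was not tested. Genes near the detection limit rest on few arrays above background, and their least folds hold only for the background correction used: with an offset of 50 the log2 difference was 0.36 for CD274 and -0.67 for ADCK1.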
